A study of Mus musculus with 16 samples.

Results

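The receptors for the colony-stimulating factors, for interleukin-3 and for the Flt3 ligand were followed through LSK and GMP of WT and URE mice. The genes were chosen by name and comprised *Csf1r*, *Csf2ra*, *Csf2rb*, *Csf2rb2*, *Csf3r*, *Il3ra* and *Flt3*, 7 of the 54347 genes in the count table, and all 7 had enough counts to be tested in every comparison. URE mice carry a deletion of the upstream regulatory element, an enhancer of *Spi1*, the gene encoding the transcription factor PU.1, and the deletion is not limited to a cell type. WT mice were littermates on the C57BL/6 background, and all animals were 8 to 12 weeks old. From femoral bone marrow enriched for c-Kit, LSK (Lin-Sca-1+c-Kit+ cells, the fraction that holds stem cells and multipotent progenitors) and GMP (Lin-Sca-1-c-Kit+Cd16/32+ granulocyte-monocyte progenitors) were sorted, with 4 mice per genotype and cell type. Whether LSK and GMP of the same replicate number came from the same mouse is not given in the sources used here. Up to 10 ng of RNA per sample was made into an unstranded library, which gave 16 libraries in 4 groups named WT LSK, URE LSK, WT GMP and URE GMP.

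Growth factor receptors set which cytokines a progenitor can respond to. *Csf1r* encodes the receptor for M-CSF, a tyrosine kinase needed for monocytes and macrophages, and *Flt3* encodes a related kinase of multipotent, lymphoid and dendritic cell progenitors. *Csf3r* encodes the receptor for G-CSF, the main growth factor of neutrophils, which works as a pair of identical chains without a kinase of its own. *Csf2ra* and *Il3ra* encode the ligand-binding alpha chains for GM-CSF and IL-3, and *Csf2rb* encodes the beta chain that both share with the IL-5 receptor and that signals through JAK2 and STAT5. *Csf2rb2* is a mouse gene for a close relative of that beta chain that serves IL-3 alone.

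Promoter sequence is shown for 4 members that went in opposite directions in URE GMP, *Csf2ra* and *Flt3*, which were lower there, and *Csf3r* and *Il3ra*, which were higher once the replicate number was taken into account. The sequences are the 250 bases before the RefSeq start of the gene on GRCm38.p6, written 5′ to 3′ on the strand of the gene, at chr19:61228419-61228668 (minus strand) for *Csf2ra*, chr5:147400490-147400739 (minus strand) for *Flt3*, chr4:126024409-126024658 (plus strand) for *Csf3r* and chr14:14346245-14346494 (plus strand) for *Il3ra*. Capitals mark the letters GAGGAA, searched as 1 form of the site that PU.1 and other ETS family factors bind. Other forms of that site were not searched.

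Csf2ra: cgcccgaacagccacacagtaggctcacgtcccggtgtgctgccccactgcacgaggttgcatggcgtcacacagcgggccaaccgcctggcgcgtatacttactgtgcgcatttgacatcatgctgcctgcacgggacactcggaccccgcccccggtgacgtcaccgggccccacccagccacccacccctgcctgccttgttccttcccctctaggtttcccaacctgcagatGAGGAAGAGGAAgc

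Flt3: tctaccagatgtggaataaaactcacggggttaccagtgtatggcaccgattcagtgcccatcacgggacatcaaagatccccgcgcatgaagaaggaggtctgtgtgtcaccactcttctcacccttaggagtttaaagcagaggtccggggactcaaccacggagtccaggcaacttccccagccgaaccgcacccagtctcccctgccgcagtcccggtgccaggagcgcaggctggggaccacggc

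Csf3r: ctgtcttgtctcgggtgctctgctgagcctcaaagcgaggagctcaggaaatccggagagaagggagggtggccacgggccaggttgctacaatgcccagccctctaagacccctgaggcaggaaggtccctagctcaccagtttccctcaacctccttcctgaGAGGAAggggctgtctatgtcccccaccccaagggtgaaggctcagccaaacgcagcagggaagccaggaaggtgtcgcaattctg

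Il3ra: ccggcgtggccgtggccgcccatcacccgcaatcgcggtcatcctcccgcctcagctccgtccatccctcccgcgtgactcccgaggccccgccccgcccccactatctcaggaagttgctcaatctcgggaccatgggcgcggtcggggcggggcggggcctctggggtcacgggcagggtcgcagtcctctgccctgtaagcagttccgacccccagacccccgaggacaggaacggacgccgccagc

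*Csf2ra* held GAGGAA at 2 adjoining positions, from -14 to -9 and from -8 to -3 relative to the start base at 0, and *Csf3r* held it from -86 to -81. *Flt3* and *Il3ra* held it on neither strand. In *Csf2rb2*, the reverse complement TTCCTC stood from -167 to -162 and from 29 to 34. The search covered both strands of a window of 300 bases, of which 250 lie before the start, and 28.1% of 32544 RefSeq promoters of this length held at least 1 match, so that 3 of 5 promoters searched here is given as a description. The letters TGTGGT of RUNX factors (16.7% of promoters) and TTGCAA of C/EBP factors (6.18%) were not found in any of the 5 windows, and no match overlapped one of another motif. *Csf2rb* had no entry among these promoters and *Csf1r* was not searched.

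On GRCm38 (GENCODE M21), the genes lie at chr18:61100598-61132149 (*Csf1r*, ENSMUSG00000024621), chr19:61223957-61228429 (*Csf2ra*, ENSMUSG00000059326), chr15:78325752-78353847 (*Csf2rb*, ENSMUSG00000071713), chr15:78282507-78305721 (*Csf2rb2*, ENSMUSG00000071714), chr4:126024550-126044440 (*Csf3r*, ENSMUSG00000028859), chr14:14346275-14356011 (*Il3ra*, ENSMUSG00000068758) and chr5:147330741-147400489 (*Flt3*, ENSMUSG00000042817). All are protein coding. Reads of some members cannot be assigned with certainty. *Csf2rb* and *Csf2rb2* share 1369 stretches of 31 bases, which is part of the 19.7% and 30.1% of their exonic stretches found in other genes, so their counts are uncertain relative to each other. *Csf1r* overlaps *Hmgxb3* on the opposite strand over 873 exonic bases, and the libraries do not keep the strand. Of the *Csf3r* stretches, 23.1% occur elsewhere, mostly in a pseudogene that the table names *Csf1r-ps* and that had 0 to 8 counts per library. For *Csf2ra*, *Il3ra* and *Flt3* under 1% of stretches were shared.

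Total counts lay between 20028302 and 29128858 per library, and levels are given as CPM, the counts per library size scaled with edgeR's TMM factors. *Spi1* was examined before the receptors. It had 3.02 ± 1.42 CPM (SD, n = 4) in URE LSK against 124 ± 40.0 (n = 4) in WT LSK, and 21.3 ± 5.97 (n = 4) in URE GMP against 140 ± 40.6 (n = 4) in WT GMP. Libraries with the same replicate number deviated together from their group means across genes (correlations of 0.237 to 0.711), and replicates 1 and 4 stood apart from replicates 2 and 3 in all 4 groups. Libraries of different numbers within these sets also deviated together (mean correlations of 0.215 to 0.262), while those across the sets did not (-0.395 to -0.318). Results are therefore also given with the replicate number as a block where this changes a receptor's call or the count of a list. Y-linked transcripts were present in replicates 1, 2 and 3 of WT and in replicate 1 alone of URE, in both cell types, so that the sexes were not balanced between genotypes. The sort markers followed their labels, with 8 of 8 stem cell markers lower in WT GMP than in WT LSK, and *Fcgr3* and *Fcgr2b*, which encode Cd16 and Cd32, higher. *Fcgr3* was also higher in URE GMP than in WT GMP (log2 fold change 1.34, SE 0.32, edgeR adjusted p = 0.0326), while *Fcgr2b* was lower in URE LSK (13.5 ± 1.16 against 0.492 ± 0.450 CPM, -4.77, SE 0.78, adjusted p = 0.0064) and differed by -0.80 (SE 0.27) in URE GMP, called lower only with the block (adjusted p = 0.118 without and 0.0215 with it).

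A gene was called at a Benjamini-Hochberg adjusted p under 0.05 from edgeR's quasi-likelihood test together with a fold change above 1.5. In LSK, 2 of 7 receptor genes were lower in URE, *Csf1r* and *Flt3*, and 0 were higher, where 3.76% of the 15154 genes tested were called lower and 2.38% higher. In GMP, 3 of 7 were lower, *Csf1r*, *Csf2ra* and *Flt3*, and again 0 were higher, against 3.63% lower and 4.67% higher of 13829 genes. The median log2 fold change of the 7 was -0.69 in LSK and -1.14 in GMP, where the median over all genes tested was 0.0009 and 0.005. The ranges of WT and URE did not overlap for 3 of 7 in LSK and for 3 of 7 in GMP, as was the case for 12.5% and 14.2% of 15935 genes. With the replicate number as a block, *Csf2rb2* was also lower in LSK (5.62% of all genes lower), and *Csf3r* and *Il3ra* were also higher in GMP (9.52% of all genes higher). For the lists below, 581 of 15154 genes were higher in LSK with the block, and 943 of 13829 were lower in GMP. In bulk RNA, fewer cells that express a gene and less of its RNA per cell cannot be told apart, which holds for every difference given here.

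**Figure D1:**
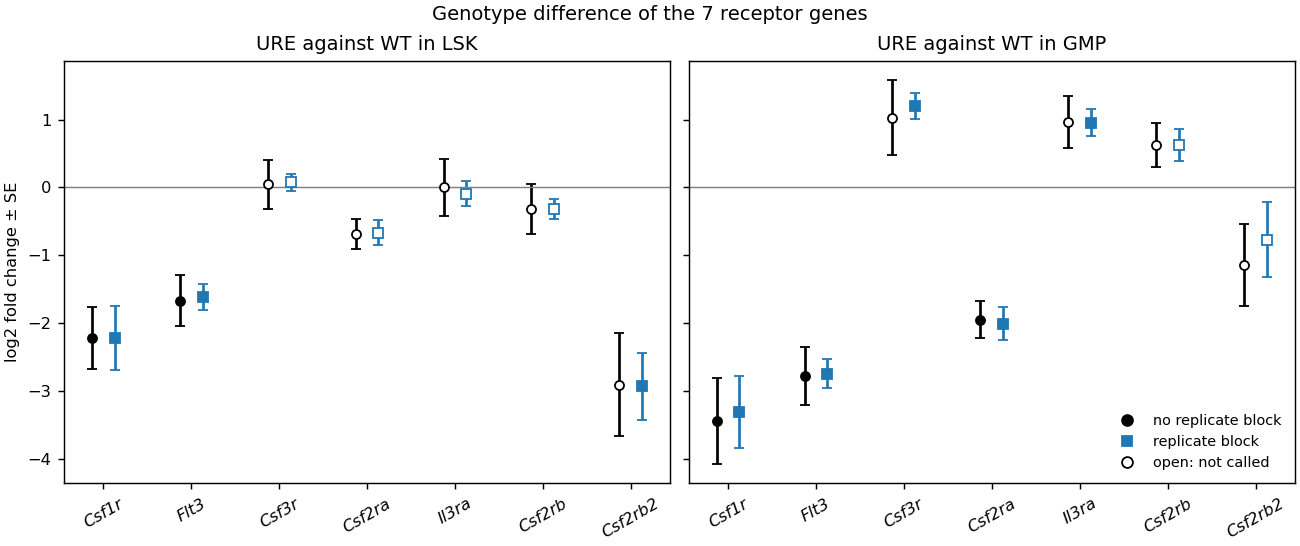
Log2 fold change (± SE) of URE against WT in LSK (left) and GMP (right) for the 7 receptor genes, from edgeR without a block (black circles) and from the fit blocked on the replicate number (blue squares). Filled symbols passed the threshold and open ones did not. *Csf1r* and *Flt3* lie below 0 in both cell types, and *Csf3r*, *Il3ra* and *Csf2rb* lie above 0 in GMP.

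*Csf1r*, the M-CSF receptor, was highest in WT GMP and lower in URE in both cell types. WT LSK had 31.7, 22.2, 8.48 and 18.3 CPM in replicates 1 to 4, and URE LSK had 4.41, 2.62, 7.25 and 3.35. The genotypes did not overlap in LSK, although WT replicate 3 and URE replicate 3 came close to each other. The log2 fold change was -2.22 (SE 0.45, edgeR adjusted p = 0.0184), and the exact two-sided permutation p was 0.0286, the smallest that 4 against 4 libraries allow. In GMP, the 4 WT libraries had 268, 96.1, 40.0 and 141 CPM and the URE libraries 7.19, 26.3, 7.54 and 9.80. Every URE library lay below every WT library, and the lowest WT value was again that of replicate 3. In GMP the log2 fold change was -3.44 (SE 0.64, edgeR adjusted p = 0.0101, exact permutation p = 0.0286).

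The size of the *Csf1r* difference depended on which libraries were used. In replicates 1 and 4 alone, the log2 fold change was -2.72 in LSK and -4.60 in GMP. In replicates 2 and 3 alone, it was -1.66 in LSK and -2.04 in GMP and did not pass the test (edgeR adjusted p = 0.293 and 0.253). In LSK, the call was also lost once Y-linked transcripts entered the model as a covariate (-2.19, adjusted p = 0.0833) and when URE replicate 1, 2 or 4 or WT replicate 2 was left out (adjusted p of 0.0507 to 0.0609). In GMP, it was kept without each library in turn, with a log2 fold change of -4.07 to -2.87. *Hmgxb3*, whose exons lie opposite those of *Csf1r*, had 366 to 727 counts in URE LSK, where *Csf1r* had 79 to 172, and its own log2 fold changes were -0.13 (SE 0.34) in LSK and -0.14 (SE 0.28) in GMP, not called.

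Some markers of monocytes were lower along with *Csf1r*. Of 8 monocyte markers tested in LSK, 4 were lower in URE (*Ly86*, *Mpeg1*, *Cx3cr1* and *Ms4a6c*), or 5 with the replicate block, and 0 were higher. In GMP, 5 of 9 were lower (*Klf4*, *Ly86*, *Mpeg1*, *Ccr2* and *Ms4a6c*), or 8 of 9 with the replicate block, where 943 of 13829 genes were lower. The summed level of the 9 markers was 89.6 to 107 CPM in WT LSK and 11.7 to 24.0 in URE LSK, and 1526 to 2121 CPM in WT GMP and 379 to 1774 in URE GMP. None of the 9 was at 0 throughout a group. *Ly6c2* lay the other way, at 306 ± 145 CPM in WT GMP and 631 ± 408 in URE GMP (log2 fold change 1.01, SE 0.49, edgeR adjusted p = 0.287), and it made up 1194 CPM of the highest URE GMP sum. Without *Ly6c2*, left out after its values were seen, the other 8 summed to 1391 to 1661 CPM in WT GMP and to 60.1 to 580 in URE GMP, which did not overlap. The highest URE GMP sum was from replicate 2 either way, the library with the highest *Csf1r* of its group at 26.3 CPM. The part of these markers in the *Csf1r* result was not tested.

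*Flt3* was the most abundant of the 7 receptor transcripts per kb in WT LSK and fell in URE in both cell types. WT LSK had 1209, 672, 360 and 773 CPM in replicates 1 to 4, against 356, 157, 184 and 271 in URE LSK. The groups met but did not overlap, since the lowest WT library (replicate 3) lay just above the highest URE library (replicate 1), while the same-numbered WT library was higher in 4 of 4 pairs. The log2 fold change was -1.67 (SE 0.38, edgeR adjusted p = 0.0295, exact permutation p = 0.0286), a 3.18-fold lower level. In GMP, WT libraries had 232, 90.1, 78.5 and 131 CPM and URE libraries 29.1, 10.4, 19.9 and 18.2. Here the groups were well apart, with a log2 fold change of -2.78 (SE 0.43, edgeR adjusted p = 0.00451, exact permutation p = 0.0286), a 6.86-fold lower level.

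The *Flt3* difference was alike in both sets of replicates, at -1.70 (replicates 1 and 4) and -1.62 (replicates 2 and 3) in LSK and at -2.95 and -2.49 in GMP, although the last of these, from 2 libraries against 2, did not pass the test (edgeR adjusted p = 0.0587). Its call in LSK was lost with the Y-linked covariate (-1.54, adjusted p = 0.107) and without any of 6 libraries (URE replicates 2, 3 and 4, WT replicates 1, 2 and 4, adjusted p of 0.0627 to 0.0754), and it was kept with the replicate block (-1.62, adjusted p = 0.0018). *Kit*, which encodes a receptor kinase of the same class, had 1226 ± 512 CPM in WT LSK and 1346 ± 515 in URE LSK (SD, n = 4 each) and was not called in either cell type (log2 fold change 0.10, SE 0.36, in LSK and 0.16, SE 0.44, in GMP).

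Some lymphoid and dendritic cell markers were lower along with *Flt3*. Of 6 lymphoid markers tested in LSK, 3 were lower in URE (*Dntt*, *Cd79b* and *Rag1*), or 4 with the replicate block, and their list of 10 summed to 345 to 707 CPM in WT LSK and 100 to 248.5 in URE LSK. *Pax5* and *Cd3e* were at 0 in all 4 URE LSK libraries and under 1 CPM in every WT LSK library. In GMP, 3 of 3 tested were lower, and the sums were 88.6 to 132 CPM in WT and 20.6 to 37.6 in URE, with *Pax5*, *Cd3e* and *Rag1* at 0 throughout URE. Dendritic cell markers were lower for 1 of 8 tested in LSK (*Cd74*), or 3 of 8 with the replicate block, and for 4 of 6 in GMP (*Cd74*, *H2-Aa*, *H2-Eb1* and *H2-Ab1*). Their sums were 253 to 661 CPM in WT LSK and 97.4 to 311 in URE LSK, and 211 to 321 in WT GMP and 21.7 to 52.9 in URE GMP. *Ccr9* lay the other way, at 0.927 to 15.3 CPM in WT LSK and 11.3 to 61.7 in URE LSK (log2 fold change 2.05, SE 0.78, edgeR adjusted p = 0.218). *Siglech* was at 0 throughout URE LSK and *Cd209a* throughout URE GMP. The sort removed cells bearing Cd3 or Cd45r. Other lists also differed in LSK. Mast cell and basophil markers summed to 69.4 to 155.5 CPM in WT LSK and 158 to 278 in URE LSK. *Mcpt8* (log2 fold change 2.11, edgeR adjusted p = 0.0262), *Cpa3* (1.90, adjusted p = 0.0212) and *Gzmb* (5.85, adjusted p = 0.00116) were called higher. *Prss34* (-0.94) and *Ms4a2* (-2.74) lay the other way and were not called. Erythroid markers summed to 1177 to 1867 CPM in WT LSK and 2210 to 2642 in URE LSK, mostly from *Car2* (1382 and 2303 CPM on average), with 1 of 10 called, *Hbb-bt*, which was lower. With the replicate block, *Car2* was also called higher (edgeR adjusted p = 0.0246) and *Car1* lower (adjusted p = 0.0476). Megakaryocyte markers summed to 71.2 to 92.5 CPM in WT LSK and to 67.3, 163, 167.5 and, in replicate 3, 816 in URE LSK, with *Itga2b* called higher (log2 fold change 1.88, SE 0.41, edgeR adjusted p = 0.026) of 6 tested. The part of all these markers in the *Flt3* and other LSK results was not tested.

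*Csf2ra*, the GM-CSF alpha chain, fell in URE GMP. WT GMP libraries had 61.9, 55.4, 67.1 and 73.5 CPM, a narrow range, and URE GMP libraries had 10.4, 24.9, 18.4 and 13.7. No library overlapped, and the log2 fold change was -1.95 (SE 0.27, edgeR adjusted p = 0.00275, exact permutation p = 0.0286). In replicates 1 and 4 it was -2.51, and in replicates 2 and 3, 2 libraries against 2, it was -1.54 and did not pass (edgeR adjusted p = 0.0905), while the call was kept without each library in turn (-2.20 to -1.78). In LSK, WT had 29.4, 21.9, 20.6 and 35.1 CPM and URE 15.4, 15.3, 18.2 and 18.8. These ranges did not overlap either, but the difference of -0.69 (SE 0.22) was not called (edgeR adjusted p = 0.132 without and 0.0652 with the replicate block, exact permutation p = 0.0286). The monocyte markers given for *Csf1r* were measured in the same GMP libraries, and their part in the *Csf2ra* result was not tested.

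*Il3ra*, the IL-3 alpha chain, did not separate the genotypes in LSK, where WT had 24.1, 16.6, 10.1 and 24.1 CPM and URE 28.7, 13.4, 8.05 and 26.3. The log2 fold change there was -0.00043 (SE 0.43, edgeR adjusted p = 0.9997), and its sign depended on the setting. In GMP, WT had 48.3, 29.6, 16.5 and 32.2 CPM and URE 64.2, 59.2, 30.7 and 94.2, so that the groups overlapped but each URE library was above the WT library of its number. The difference of 0.96 (log2, SE 0.38) was not called without a block (edgeR adjusted p = 0.188, exact permutation p = 0.0857) and was called with it (0.95, SE 0.20, edgeR adjusted p = 0.0143). Replicate 3 was lowest in all 4 groups. Markers of mast cells and basophils, which carry the IL-3 receptor, summed to 716 to 1273 CPM in WT GMP and 871 to 2481 in URE GMP, with none at 0 throughout a group. Of the 7, *Gzmb* and *Mcpt8* were higher in URE GMP and *Ms4a2* and *Prss34* lower. Their part in the *Il3ra* values was not tested.

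*Csf2rb*, the beta chain common to GM-CSF, IL-3 and IL-5, ranged from 18.3 to 49.2 CPM in WT LSK and from 15.8 to 41.5 in URE LSK. In GMP it had 83.6, 38.4, 42.0 and 54.2 CPM in WT and 92.8, 102.3, 43.6 and 101.4 in URE. URE was higher in 4 of 4 same-numbered pairs, though by little in replicates 1 and 3, and the groups overlapped. In GMP the log2 fold change was 0.62 (SE 0.33, edgeR adjusted p = 0.333, and 0.112 with the replicate block) and in LSK -0.32 (SE 0.37, edgeR adjusted p = 0.848). Neither was called.

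*Csf2rb2*, the IL-3 beta chain, was the scarcest of the 7. WT LSK had 14.6, 5.44, 2.11 and 12.2 CPM, and URE LSK had 1.33, 0.232, 0.758 and 2.34, from only 34, 7, 18 and 56 counts. The groups overlapped narrowly, by WT replicate 3 and URE replicate 4, and URE was lower in 4 of 4 same-numbered pairs. The difference of -2.91 (log2, SE 0.76) missed the threshold without a block (edgeR adjusted p = 0.0563, exact permutation p = 0.0571) and passed it with the block (-2.94, SE 0.49, edgeR adjusted p = 0.00875). In GMP, the libraries had 13.04, 2.99, 1.56 and 6.07 CPM in WT and 1.83, 4.13, 1.95 and 2.93 in URE, with no common direction. The log2 fold change there was -1.14 (SE 0.61, edgeR adjusted p = 0.344), at -2.02 in replicates 1 and 4 and 0.38 in replicates 2 and 3. With the 2 beta chain genes summed into one row, the log2 fold change was -0.60 (SE 0.39, edgeR adjusted p = 0.586) in LSK and 0.52 (SE 0.34, edgeR adjusted p = 0.460) in GMP.

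*Csf3r*, the G-CSF receptor, was level between genotypes in LSK. WT had 170, 93.7, 70.5 and 189 CPM in replicates 1 to 4 and URE 170, 122, 74.4 and 184. The values tracked the replicate number so closely that the genotypes nearly coincided, and the log2 fold change was 0.05 (SE 0.36, edgeR adjusted p = 0.985, and SE 0.12 with the replicate block). In GMP, WT libraries had 207, 114, 36.6 and 248 CPM and URE libraries 343, 343, 120 and 434. URE was above WT in 4 of 4 same-numbered pairs, while replicate 3 was lowest in both genotypes and its URE library lay within the WT range. Without a block the log2 fold change of 1.03 (SE 0.55) was not called (edgeR adjusted p = 0.346, exact permutation p = 0.143), and with the block it was (1.20, SE 0.19, edgeR adjusted p = 0.00445). The neutrophil markers summed to 54770 to 70190 CPM in WT GMP and 74040 to 159800 in URE GMP, with 1 of 10 called higher (*Ngp*), or 8 of 10 with the replicate block, and none at 0 throughout a group. In LSK their sums were 1044 to 1657 CPM in WT and 992 to 1838 in URE, with *Elane* and *Ngp* higher and *Prtn3* lower (6 of 10 higher with the block). The part of these markers in the GMP differences of *Csf3r* and *Il3ra* was not tested.

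**Figure D2:**
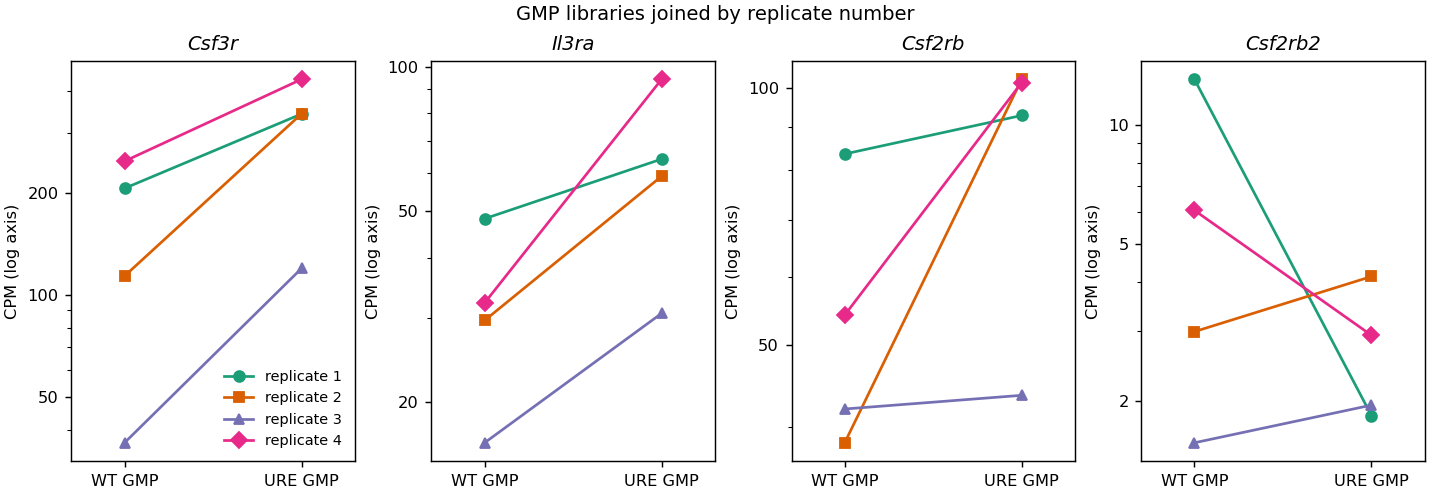
CPM (log axis) of *Csf3r*, *Il3ra*, *Csf2rb* and *Csf2rb2* in the 8 GMP libraries, with WT and URE libraries of the same replicate number joined. The lines of *Csf3r*, *Il3ra* and *Csf2rb* rise in 4 of 4 pairs, and those of *Csf2rb2* rise in 2 and fall in 2.

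The replicate numbers marked the receptors strongly. Over the 7 genes and 4 groups, the mean log2 level of replicates 1 and 4 was above that of replicates 2 and 3 in 24 of 28 cases, and the lowest library was replicate 2 or 3 in 25 of 28. For *Csf3r*, the gap between these sets was 0.89 to 1.81 on the log2 scale, and for *Il3ra* it was 0.83 to 1.40, both present in 4 of 4 groups. Replicates 1 and 4 were above in 2 groups for *Csf1r*, in 3 for *Csf2ra* and *Csf2rb2*, and in 4 for *Csf2rb* and *Flt3*.

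**Figure D3:**
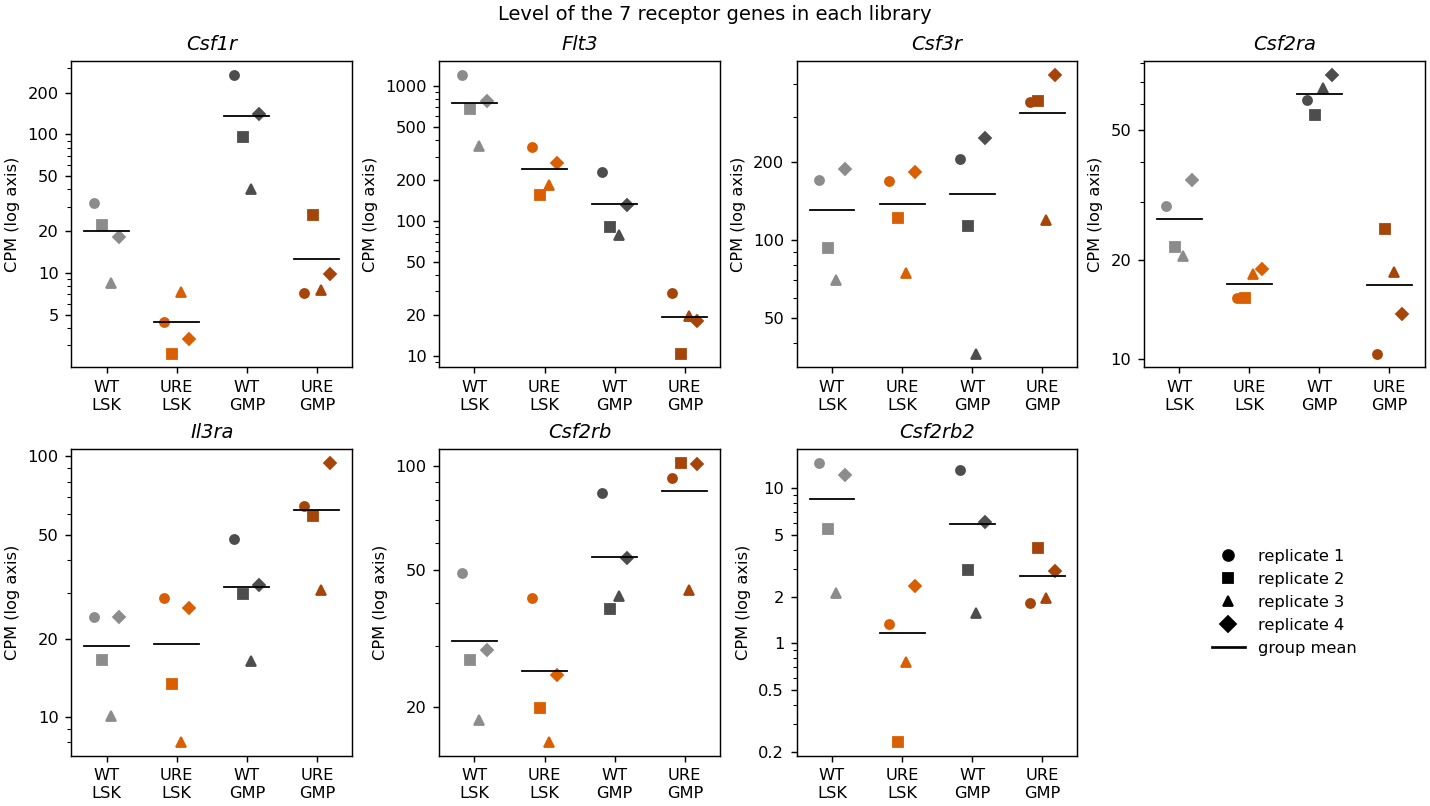
CPM (log axis) of each receptor gene in each of the 16 libraries, by group, with a marker shape for each replicate number and a line at the group mean. In *Csf1r*, *Csf2ra* and *Flt3* the URE libraries lie below the WT libraries of the same cell type, and replicate 3 (triangles) is lowest in all 4 groups of *Csf3r* and *Il3ra*.

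Whether the genotype difference itself differed between LSK and GMP was tested by an interaction term over the 16 libraries. None of the 7 passed without a block, where 1.22% of 15935 genes did (edgeR, 0 of 7 at an adjusted p under 0.05, 1 of 7 at an unadjusted p under 0.05, and 1 of 7, *Csf2ra*, with DESeq2). With the replicate block, 4 of 7 passed, where 6.57% of all genes did. *Csf2ra* (log2 difference -1.28, SE 0.33, edgeR adjusted p = 0.0364) and *Flt3* (-1.08, SE 0.29, adjusted p = 0.0416) were lowered more in GMP than in LSK. *Il3ra* (1.01, SE 0.24, adjusted p = 0.0243) and *Csf3r* (1.08, SE 0.30, adjusted p = 0.0486) were higher in URE GMP relative to LSK. For *Csf1r*, whose decrease was larger in GMP, the difference of -1.23 (SE 0.79) did not pass in either fit. *Spi1* itself passed in both, with a log2 difference of 2.64 (SE 0.52, edgeR adjusted p = 0.0218), as its decrease was smaller in GMP.

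The step from LSK to GMP was compared within each genotype. In WT, *Csf1r* (log2 fold change 2.74, SE 0.59, edgeR adjusted p = 0.00781) and *Csf2ra* (1.26, SE 0.21, adjusted p = 0.00254) were higher in GMP and *Flt3* was lower (-2.51, SE 0.44, adjusted p = 0.00306), where 11.5% of all genes were called higher and 15.8% lower. With the block, *Csf2rb* (0.82, SE 0.13) and *Il3ra* (0.73, SE 0.13) were also higher and *Csf2rb2* (-0.63, SE 0.20) also lower in WT, at edgeR adjusted p of 0.000904, 0.00154 and 0.0285, against 15.8% of genes higher and 25.1% lower. In URE, *Csf2rb* (1.69, SE 0.36, adjusted p = 0.00926) and *Il3ra* (1.65, SE 0.45, adjusted p = 0.0275) were higher in GMP and *Flt3* was lower (-3.68, SE 0.39, adjusted p = 0.000336), where 9.2% of all genes were called higher and 12.6% lower. The *Il3ra* call was lost without URE GMP replicate 1, 2 or 4 or URE LSK replicate 2 (log2 fold change 1.39 to 1.69, adjusted p of 0.0538 to 0.0808). *Csf3r* was 1.12 higher (SE 0.40, edgeR adjusted p = 0.0719) in URE GMP than in URE LSK, a difference called with the block (1.07, adjusted p = 0.00113, where 13.3% of genes were higher), and *Csf1r* was 1.47 higher (SE 0.50, adjusted p = 0.0652, not called in either fit). *Csf2ra*, which rose from LSK to GMP in WT, had -0.05 (SE 0.28) in URE. These comparisons share their libraries with the genotype comparisons and are not independent of them.

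Across the 4 groups, the order of levels differed from gene to gene. *Csf1r* was 6.76-fold higher in WT GMP than in WT LSK, its next group, without overlap, and the following steps to URE GMP and URE LSK overlapped. *Csf2ra* went from WT GMP to WT LSK and to URE LSK without overlap, and its mean in URE LSK (16.9 CPM) and URE GMP (16.8) hardly differed. *Flt3* ran from WT LSK to URE LSK without overlap, then to WT GMP with overlap, and to URE GMP, 6.86-fold below WT GMP, without overlap. For *Csf3r*, *Il3ra*, *Csf2rb* and *Csf2rb2*, every neighbouring step overlapped. *Csf3r*, *Il3ra* and *Csf2rb* were highest in URE GMP, and *Csf2rb2* was highest in WT LSK.

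To compare levels between genes, CPM was divided by the length of the exons in kilobases (CPM per kb). *Flt3* made up 60.3 to 70.8% of the summed CPM per kb of the 7 genes in WT LSK, at a mean level of 122 ± 56.8 CPM per kb (SD, n = 4), followed by *Csf3r* at 36.2 ± 15.9. In URE LSK, *Flt3* and *Csf3r* were nearly equal, at 39.2 ± 14.6 and 38.1 ± 13.8 CPM per kb. In WT GMP, *Csf3r* was at 41.9 ± 26.3, *Csf1r* at 23.6 ± 16.8, *Csf2ra* at 22.5 ± 2.68 and *Flt3* at 21.5 ± 11.3 CPM per kb. The SDs of these levels overlap, although within each of the 4 libraries *Csf3r* was above *Csf1r*. The order of the last 3 of these changed when the longest transcript was used as the length. In URE GMP, *Csf3r* alone made up 54.6 to 68.3% of the sum, at 85.9 ± 37.1 CPM per kb, with *Il3ra* (20.9 ± 8.77) and *Csf2rb* (11.7 ± 3.84) after it and *Csf1r* at 2.20 ± 1.58.

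**Figure D4:**
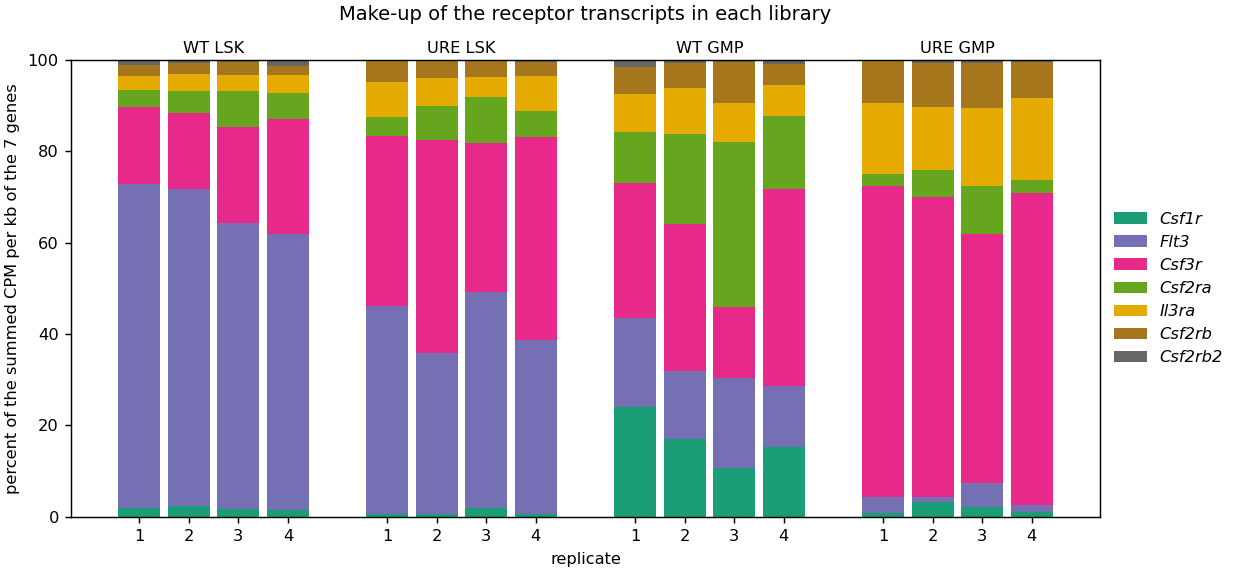
Share of each receptor gene in the summed CPM per kb of the 7 genes, in percent, for each library (bars, replicates 1 to 4 in each of the 4 groups). *Flt3* takes the largest share in WT LSK (60.3 to 70.8%) and *Csf3r* in URE GMP (54.6 to 68.3%).

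Ratios were also taken within each library. The ratio of *Csf3r* to *Csf1r* by CPM per kb was 1.23 to 2.82 in WT GMP and 20.9 to 76.3 in URE GMP. In LSK it was 6.76 to 16.6 in WT and 16.4 to 88.0 in URE, where the lowest URE library, replicate 3, fell just within the WT range. *Csf2ra* exceeded the shared beta chain *Csf2rb* 1.87 to 4.04 times in WT GMP, while the ratio was 0.283 to 1.07 in URE GMP and the groups did not overlap. *Il3ra* to *Csf2rb* stayed close together in all groups, at 1.43 ± 0.38 in WT GMP and 1.78 ± 0.36 in URE GMP and at 1.52 ± 0.35 in WT LSK and 1.80 ± 0.57 in URE LSK (SD, n = 4 each). *Csf2rb2* to *Csf2rb* was 0.177 to 0.639 in WT LSK and 0.0179 to 0.145 in URE LSK. *Flt3* to *Kit* was 0.698 to 1.10 in WT LSK, 0.204 to 0.320 in URE LSK, 0.219 to 0.442 in WT GMP and 0.0258 to 0.0531 in URE GMP. No test was run on these ratios.

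**Figure D5:**
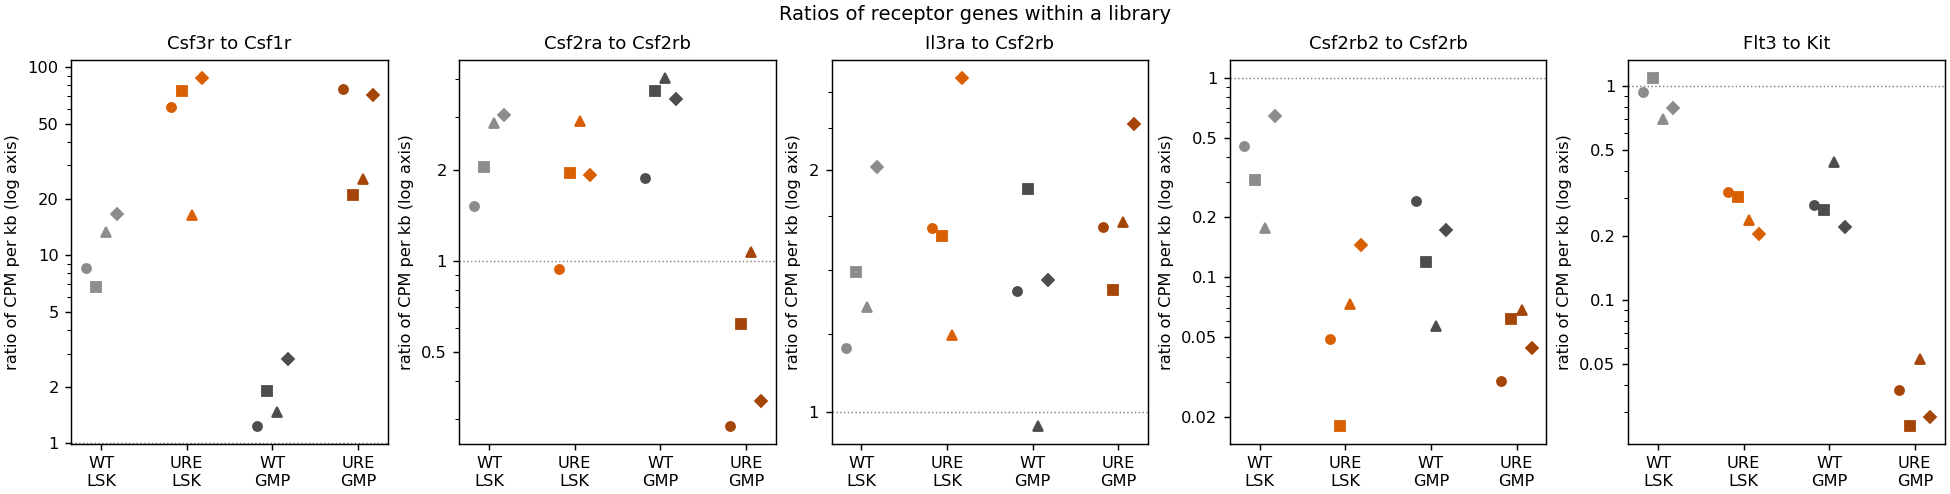
Ratios of CPM per kb between receptor genes in each library (log axis), by group, with marker shapes for replicates 1 to 4 as in the plot of levels. *Csf3r* to *Csf1r* and *Csf2ra* to *Csf2rb* do not overlap between WT GMP (1.23 to 2.82 and 1.87 to 4.04) and URE GMP (20.9 to 76.3 and 0.283 to 1.07).

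Most of the ligands had few or no counts in these cells. Of 8 genes, 3 had enough counts for a test in both cell types (*Csf1*, *Flt3l* and *Kitl*), and 0 were called between genotypes (edgeR, also 0 with the replicate block). *Csf1*, the gene for M-CSF, had 8.46 ± 5.57 and 11.1 ± 7.87 CPM in WT and URE LSK and 10.3 ± 6.71 and 9.92 ± 2.60 in WT and URE GMP (SD, n = 4 each). *Flt3l*, the ligand of Flt3, had 7.59 ± 1.35 CPM in WT LSK and 11.4 ± 1.41 in URE LSK (SD, n = 4 each), and 3.11 ± 0.419 and 4.87 ± 1.22 in GMP, with log2 fold changes of 0.55 (SE 0.24, edgeR adjusted p = 0.307) and 0.64 (SE 0.29, adjusted p = 0.266). *Csf2*, *Csf3* and *Il3*, the genes for GM-CSF, G-CSF and IL-3, had 0 counts in all 16 libraries.

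Among 12 related receptors, of which 11 were tested, 1 was lower in LSK, *Il6ra*, and 0 were higher. *Il6ra*, the IL-6 alpha chain, had 10.2 ± 1.95 CPM in WT LSK and 3.15 ± 0.271 in URE LSK (log2 fold change -1.73, SE 0.25, edgeR adjusted p = 0.00375). In GMP, 3 were lower and 2 higher. With the replicate block, 2 were lower and 1 higher in LSK, and 4 were lower and 3 higher in GMP. *Il6st*, the signalling chain shared by the IL-6 family, had 91.7 ± 65.3 CPM in WT GMP and 9.01 ± 3.71 in URE GMP (-3.36, SE 0.55, adjusted p = 0.00558). *Il5ra*, the IL-5 alpha chain that pairs with the *Csf2rb* product, had 4.97 ± 2.42 CPM in WT GMP and no count in any URE GMP library, which makes it at least 31.9-fold lower at a floor of 3 counts per library. *Il7r*, the IL-7 alpha chain, had 0.54 to 1.81 CPM in WT GMP and was at 0 in 3 of 4 URE GMP libraries and at 0.145 CPM in the other (edgeR adjusted p = 0.0131), too few counts for a fold. *Ifngr1*, a chain of the interferon gamma receptor, rose from 614 ± 65.4 to 1472 ± 247 CPM (1.25, SE 0.16, adjusted p = 0.00206), and *Il2rg*, the chain shared by the IL-2 family, rose from 178 ± 47.7 to 429 ± 87.7 (1.27, SE 0.22, adjusted p = 0.0075). The median log2 fold change of the list was 0.10 in LSK and 0.11 in GMP, the latter also with *Il5ra* at its bound.

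Downstream of the receptors, 0 of 11 JAK and STAT genes were called in GMP by edgeR without the block, against 1 with it (*Jak3*, log2 fold change 1.15 without the block, adjusted p = 0.00218 with it). Among 20 adaptors and kinases, 0 were higher in either cell type. *Syk*, *Btk* and *Pik3cg* were called lower in LSK only with the replicate block (edgeR adjusted p = 0.0168, 0.027 and 0.00271). *Pik3r5*, a regulatory subunit of PI3K gamma, was lower in LSK (log2 fold change -2.97, SE 0.63, edgeR adjusted p = 0.0222) and in GMP (-4.81, SE 0.87, adjusted p = 0.00936). *Fes*, a tyrosine kinase of myeloid cells, was lower in LSK only by this threshold (-1.50, SE 0.36, adjusted p = 0.0381, against -0.57, SE 0.26, in GMP), and the difference between the cell types did not pass the interaction test.

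Of 15 genes that restrain these receptors, *Ptpn6*, the phosphatase SHP-1, and *Sla*, an adaptor that lowers receptor levels, were lower in both cell types. With the block, 4 were lower and 4 higher in LSK. *Ptpn6* had 320.5 ± 37.4 CPM in WT LSK and 135 ± 18.8 in URE LSK (log2 fold change -1.27, SE 0.16, edgeR adjusted p = 0.00145) and was lower in GMP by a log2 fold change of -0.66 (SE 0.17, adjusted p = 0.0432). The difference between the 2 passed the interaction test only with the block (edgeR adjusted p = 0.294 without and 0.0236 with it). *Sla* fell by 3.06 (SE 0.32, adjusted p = 0.000652) in LSK and by 1.57 (SE 0.29, adjusted p = 0.01) in GMP on the log2 scale. *Sh2b3*, the adaptor LNK, was lower in GMP (-1.25, SE 0.25, adjusted p = 0.0142). *Socs3*, an inhibitor of G-CSF receptor signalling, had 1.72 ± 1.36 CPM in WT GMP and 10.6 ± 7.88 in URE GMP, a difference of 2.62 (SE 0.80) not called without the block (adjusted p = 0.0822) and called with it (adjusted p = 0.000682).

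Of 16 genes that these pathways are known to control, 15 were tested in each cell type, with 1 higher and 2 lower in LSK and 2 lower in GMP (3 higher and 3 lower with the block). *Irf8*, the transcription factor of monocyte and dendritic cell precursors, was lower in LSK (48.1 ± 13.4 against 5.37 ± 2.48 CPM, log2 fold change -3.19, SE 0.36, edgeR adjusted p = 0.000947) and in GMP (273 ± 96.5 against 49.0 ± 53.9 CPM, -2.51, SE 0.64, adjusted p = 0.0428). *Pim2*, a survival kinase induced through STAT5, was higher in LSK (54.3 ± 23.0 against 137 ± 34.6 CPM, 1.31, SE 0.32, adjusted p = 0.0403). *Bcl2a1d* had 0.896 ± 0.340 CPM in WT LSK and no count in URE LSK, at least 7.65-fold lower at the floor of 3 counts per library. *Ccnd1*, the gene for cyclin D1, fell in GMP from 28.6 ± 12.9 to 3.56 ± 0.217 CPM (-3.00, SE 0.38, adjusted p = 0.00178) against 41.0 ± 14.7 and 35.0 ± 9.12 CPM in LSK (-0.26, SE 0.29), and this difference passed the interaction test (-2.77, adjusted p = 0.0122).

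The genes most like each receptor were taken as the 3 with the highest Pearson correlation of log2 CPM over the 16 libraries, among 9070 genes. The libraries share their group and replicate number, so these values describe a common pattern and have no p. *Csf1r* was closest to *Mpeg1* (r = 0.953), *Rogdi* (0.928) and *Irf8* (0.928). *Csf2ra* was closest to *Rassf4* (0.944), *Gria3* (0.940) and *Mlkl* (0.936), and *Flt3* to *Wdr35* (0.957), *Tet1* (0.957) and *Ddah2* (0.955). *Csf3r* was closest to *Ikbke* (0.952), *Ankrd46* (0.946) and *Nucb1* (0.945), and *Il3ra* to *Mid1ip1* (0.965), *Cltc* (0.964) and *Rab3d* (0.964). For the beta chains, *Csf2rb* was closest to *Chdh* (0.952) and *Tex2* (0.951), and *Csf2rb2* to *Mfsd12* (0.923), *Padi2* (0.889) and *Wdfy2* (0.888). Among the receptors themselves, r was 0.929 between *Csf2rb* and *Il3ra*, 0.874 between *Csf1r* and *Csf2ra*, 0.841 between *Csf3r* and *Il3ra* and 0.04 between *Csf1r* and *Csf3r*. With *Spi1*, r was 0.766 for *Csf1r*, 0.699 for *Csf2ra*, 0.655 for *Csf2rb2*, 0.159 for *Flt3* and -0.16 for *Csf3r*.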

How the data were processed

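Low-input RNA-seq of 16 libraries was used. Reads were quantified by the authors with salmon on GRCm38 and summed to genes, and the deposited values are estimated counts per gene, given as whole numbers for 54347 genes (20028302 to 29128858 per library). Versions of these tools are not given in the sources used here. Counts were scaled by TMM, filtered by filterByExpr and tested with edgeR 4.0.16 (quasi-likelihood, Benjamini-Hochberg over all genes tested, limma 3.58.1, R 4.3.3) within the 2 groups compared, or over all 16 libraries for the interaction, which was called at adjusted p under 0.05 without a fold threshold. DESeq2 1.42.0, other scalings, filters, thresholds, the replicate block, a Y-linked covariate, thinned counts and left-out libraries were alternatives. Exact permutation tests were two-sided on the difference of mean log2 CPM (prior count 2). The replicate numbers come from the labels, and every same-numbered pair correlated above 0.1 in its deviations from the group means, the lowest at 0.237. Some pairs of different numbers correlated more. In LSK, URE replicate 4 had 0.398 with WT replicate 1 and 0.282 with WT replicate 4. The numbers were taken to pair the libraries, but these values do not tell pairing by number from the sets of replicates 1 and 4 and of 2 and 3. No library pair was a duplicate (chi-square per degree of freedom at least 29.6). P-values measure the spread between the libraries of a group, each group from 4 mice. Without the block, this spread includes the difference between replicates 1 and 4 and replicates 2 and 3. The tests of GMP against LSK and of the interaction had no term for the mouse. Without the block they treat LSK and GMP libraries as independent, and whether these came from the same mice is not given. Named genes were the members, *Spi1*, the listed pathway and marker genes and the 3 most correlated genes (log2 CPM, prior count 2, mean of at least 3). Some listed genes are not reported here. The members and lists were chosen with earlier results of these data known. Fits were tested on simulated counts. Lengths and coordinates come from GENCODE M21 and promoters from RefSeq, where 5 of 7 members were searched. *Csf2rb* had no entry, and *Csf1r* was left out of the search by choice, so its promoter is not described.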

Additional observations from a re-analysis of the deposited data

Results flagged for a closer look

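A library standing far from the other 3 of its group was found in 9 of 112 groups of 4 examined, over 27 genes and the total counts, where chance gives about 1 in 20, or 5.6. Of the receptors, *Csf1r* had 26.3 CPM in URE GMP replicate 2 (7.19 to 9.80 in the others), and *Csf2rb* had 43.6 CPM in URE GMP replicate 3 (92.8 to 102.3 in the others). URE GMP replicate 2 also stood apart for *Irf8* at 129.5 CPM (16.04 to 27.1), *Il6ra* at 6.16 CPM (0.82 to 1.44) and *Ccnd1* at 3.24 CPM (3.66 to 3.69). URE LSK replicate 2 had 9.05 CPM of *Irf8* (3.67 to 4.39). In WT GMP, replicate 4 had 248.9 CPM of *Il2rg* (145 to 161) and replicate 1 had 106.4 CPM of *Fes* (64.8 to 70.5). *Il7r* was at 0.145 CPM in URE GMP replicate 1 and at 0 in the others.

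The genotype difference itself differed between the cell types for 2 of the 27 genes examined (the 7 receptors, *Spi1* and genes of their pathways), by the interaction test over 16 libraries without a block. With the replicate block, 12 of the 27 passed, 4 of them receptors (*Csf2ra*, *Flt3*, *Il3ra* and *Csf3r*). *Spi1* had a log2 difference of 2.64 (edgeR adjusted p = 0.0218), which did not pass without WT LSK replicate 4 (2.47, adjusted p = 0.0503), and *Ccnd1* had -2.77 (edgeR adjusted p = 0.0122). Outside those 27, the marker genes *Prtn3* (2.60, edgeR adjusted p = 0.0179) and *Fcgr2b* (3.95, adjusted p = 0.0166) passed the same test.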

How the results depend on the processing

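Of 468 results on the 7 receptors under alternatives other than leaving out 1 library, 425 kept direction and side of the threshold, 22 passed it newly, 7 no longer passed and 14 changed sign. The cause of these changes was not tested. All values are log2 fold changes unless given as genes. For *Il3ra* in LSK, the sign turned under DESeq2 (0.032), RLE size factors (0.030), the joint fit (0.029), no filter (0.021), thinned counts (0.016), the Y-linked covariate (0.040) and replicates 1 and 4 (0.16). *Csf2rb2* in LSK passed under DESeq2, no filter, upper-quartile scaling and replicates 1 and 4 (-2.89 each) and the joint fit (-2.88). With the Y-linked covariate, *Csf1r* (-2.19) and *Flt3* (-1.54) in LSK no longer passed, *Csf3r* in LSK was -0.032, and 188 genes were higher and 317 lower in LSK and 324 and 295 in GMP. DESeq2 called 677 genes higher and 954 lower in LSK, 1112 and 883 in GMP and 416 and 258 for the interaction, which *Csf2ra* passed (-1.31). It also called *Csf1r* (1.56) and *Csf3r* (1.20) in URE GMP against URE LSK, where *Csf2ra* was 0.026, and 0.014 with RLE size factors. A fold above 2 left 872 genes higher in WT GMP than WT LSK and 882 in URE, and no filter left 36 lower for the interaction.

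With the replicate block, *Csf2rb2* in LSK (-2.94), *Csf3r* (1.20) and *Il3ra* (0.95) in GMP, *Csf2rb* (0.82), *Csf2rb2* (-0.63) and *Il3ra* (0.73) between WT GMP and WT LSK, *Csf3r* between URE GMP and URE LSK (1.07), and *Csf2ra* (-1.28), *Csf3r* (1.08), *Il3ra* (1.01) and *Flt3* (-1.08) for the interaction passed newly, and the block changed no other call of a receptor. Genes called with the block were 581 higher in LSK, 1317 higher and 943 lower in GMP, 3706 lower in WT GMP against WT LSK, and 632 higher and 415 lower for the interaction.

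In replicates 1 and 4 alone, *Csf3r* in LSK was -0.049, *Csf2rb2* in GMP passed (-2.02), *Csf1r* and *Csf3r* passed between URE GMP and URE LSK (1.14 each, 2034 genes higher), *Spi1* was -0.0027 between WT GMP and WT LSK, and 37 genes were lower for the interaction. In replicates 2 and 3 alone, *Csf1r* in LSK (-1.66), *Csf1r* (-2.04), *Csf2ra* (-1.54) and *Flt3* (-2.49) in GMP and *Csf1r* between WT GMP and WT LSK (2.23) no longer passed, while *Csf2rb2* in GMP (0.38), *Csf3r* between WT cells (-0.062) and *Csf2ra* between URE cells (0.38) changed sign. Genes called were then 157 higher and 229 lower in LSK, 56 and 52 in GMP, 1230 lower between WT cells, 363 and 447 between URE cells and 1 and 1 for the interaction.

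Leaving out 1 library at a time gave, in LSK, -2.57 to -1.91 for *Csf1r*, -0.65 to 0.0058 for *Csf2rb*, -3.50 to -2.52 for *Csf2rb2* (called without WT replicate 3), -0.14 to 0.26 for *Csf3r*, -0.26 to 0.26 for *Il3ra*, -1.91 to -1.34 for *Flt3*, and 206 to 353 genes higher and 359 to 608 lower. In GMP, 395 to 638 genes were higher and 320 to 538 lower. Between WT cells, *Csf2rb* was 0.57 to 1.12 (called without WT LSK replicate 1), *Csf3r* -0.14 to 0.55 and *Spi1* -0.034 to 0.39. Between URE cells, *Csf1r* was 0.86 to 1.88 (called without URE LSK replicate 3), *Csf2ra* -0.28 to 0.13, *Csf3r* 0.93 to 1.40 (called without URE GMP replicate 3) and *Il3ra* 1.39 to 1.96. For the interaction, *Csf2ra* was -1.53 to -1.12 (called without URE GMP replicate 2), *Spi1* 2.37 to 2.90, and genes called were 66 to 188 higher and 18 to 95 lower. By Spearman correlation, 7 of 21 nearest genes stayed among the 3 nearest. The alternative with no fold threshold was not run for the interaction, which has none, and the promoter search had no alternative. Depth limited *Csf2rb2* most, with 7 to 56 counts per URE LSK library.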
